A study of Mus musculus with 12 samples.

Results

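Hepatocyte transcription factors are described here by 8 genes, Hnf4a, Foxa1, Foxa2, Foxa3, Cebpa, Cebpb, Onecut1 and Prox1, chosen by name from the 45706 genes of the expression table. All 8 were present. Of these, 6 had a mean of at least 0.1 TPM (transcripts per 1000000, a level corrected for transcript length) over all libraries and were tested among 18909 such genes, whereas Onecut1 and Prox1 were below that level and are given by their values.

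RNA-seq was performed on BN1-Tie2-EGFP cells, a murine hepatoblastoma (HB) line in 12 libraries. The line came from a tumor driven by mutant β-catenin (B) and NRF2 (N), its Cdkn2a gene was targeted by Crispr in all groups, and it carries EGFP under the Tie2/Tek promoter. Unsorted cells were kept in 21% oxygen (UN) or exposed to 1% oxygen for 2 days (UH). SN cells were those with the highest EGFP after hypoxia, sorted and grown on for about 10 days in 21% oxygen, and SH cells were SN cells put back into 1% oxygen for 2 days. Each group had 3 libraries. All groups derive from 1 cell line, whose stable transfectants were pooled, and the sort selected on the reporter and not on any of these factors. The comparisons ask how these factors respond to hypoxia in unsorted (UH vs UN) and sorted (SH vs SN) cells, and how sorted and unsorted cells differ in normoxia (SN vs UN) and hypoxia (SH vs UH). Sorted cells also had an earlier 2 days of hypoxia and about 10 days of growth after it. No group had these without the sort, so the sort, the earlier hypoxia and the growth cannot be told apart.

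In the liver, HNF4α, a nuclear receptor, and the forkhead proteins FOXA1, FOXA2 and FOXA3 bind the promoters and enhancers of hepatocyte genes, and each regulates expression of other factors of the network. C/EBPα is known for its high level in differentiated, non-dividing hepatocytes, and C/EBPβ for its induction during the acute phase response and regeneration. HNF6, encoded by Onecut1, and PROX1 are homeodomain proteins that act in the hepatoblast, the bipotential progenitor of hepatocytes and cholangiocytes.

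Promoter sequences are shown for the 4 members that were called in at least 1 comparison, to show how differently built they are. They are RefSeq windows of 250 bases before an annotated start on GRCm38.p6, the build of the deposited data (mm10), and all 8 members were matched by symbol to 12 windows. Hnf4a has a pair of alternative promoters 40298 bases apart on the plus strand of chromosome 2, of which the distal (P2) window, chr2:163506607-163506807, is printed without its last 49 bases because GENCODE M21 starts the gene earlier. The proximal (P1) window lies at chr2:163546905-163547154. The Foxa2 window is that of the outermost start, chr2:148046970-148047219 on the minus strand. The windows of Cebpa, chr7:35119043-35119292, and Cebpb, chr2:167688665-167688914, are on the plus strand. Capitals mark matches on either strand to the motifs listed after the sequences.
Hnf4a distal: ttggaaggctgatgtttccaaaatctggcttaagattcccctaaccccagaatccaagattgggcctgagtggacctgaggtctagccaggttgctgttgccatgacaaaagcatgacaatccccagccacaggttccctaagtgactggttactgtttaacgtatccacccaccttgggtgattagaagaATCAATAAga
Hnf4a proximal: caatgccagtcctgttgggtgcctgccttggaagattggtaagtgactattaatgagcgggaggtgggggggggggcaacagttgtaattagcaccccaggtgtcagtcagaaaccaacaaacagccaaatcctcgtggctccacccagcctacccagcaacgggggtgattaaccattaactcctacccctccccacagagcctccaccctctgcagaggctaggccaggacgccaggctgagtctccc
Foxa2: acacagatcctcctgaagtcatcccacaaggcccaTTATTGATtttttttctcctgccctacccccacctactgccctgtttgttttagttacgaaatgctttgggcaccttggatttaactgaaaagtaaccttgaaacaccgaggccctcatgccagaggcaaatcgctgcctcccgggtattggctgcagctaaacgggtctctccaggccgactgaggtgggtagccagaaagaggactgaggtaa
Cebpa: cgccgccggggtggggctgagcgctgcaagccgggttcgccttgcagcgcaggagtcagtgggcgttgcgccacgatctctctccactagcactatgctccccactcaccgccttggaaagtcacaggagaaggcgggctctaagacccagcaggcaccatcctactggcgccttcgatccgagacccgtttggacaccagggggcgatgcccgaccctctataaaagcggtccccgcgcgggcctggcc
Cebpb: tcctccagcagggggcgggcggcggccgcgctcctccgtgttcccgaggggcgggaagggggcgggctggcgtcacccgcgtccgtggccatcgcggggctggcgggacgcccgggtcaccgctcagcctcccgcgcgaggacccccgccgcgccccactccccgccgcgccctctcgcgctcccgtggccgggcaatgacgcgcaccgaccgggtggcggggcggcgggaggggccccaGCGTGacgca

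The motif letters, chosen with the sequences in view, were ATCNATAA for onecut factors, the heptamer TGTTTAC for forkhead factors along with its variant TGTTTGC, AAAGTCCA for HNF4, TTGCNNAA for C/EBP, and the hypoxia response element core ACGTG together with its common variant GCGTG. The onecut motif was present in 2 of the 12 member windows, Hnf4a distal (59 to 52 bases before the RefSeq start) and the printed Foxa2 window (215 to 208 bases), and in 1.51% of all 32851 windows. The proximal Hnf4a window and the Cebpa window held no match. The hypoxia response core was found in 5 of 12 member windows and 38.6% of all windows. The member windows were those of Foxa3, Onecut1 and Cebpb, and the Foxa2 windows that are not printed. In Cebpb it ended 6 bases before the start. Forkhead motifs were in 2 of 12 (7.29% of all), and HNF4 and C/EBP motifs in 0 of 12 (1.01% and 9.56% of all). The motifs overlapped one another only in the Onecut1 window, where 2 hypoxia response matches shared bases. CpG content varied widely, with 3 and 4 CG dinucleotides in the full distal and proximal Hnf4a windows, 6 in the printed Foxa2 window but 13 and 20 in its other windows, 22 in Cebpa and 41 in Cebpb, against a median of 6 over all windows. A match is only a description of letters in these windows.

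TPM keep no record of sequencing depth, so no interval for counting error can be given, and precision rests on the spread of 3 libraries per group. The study calls its replicas independent, without saying whether they were separate cultures, and the p-values measure the spread between these samples. Replicates correlated with Pearson's r of 0.977 to 0.991 across genes, which are not independent, and 7 of 8 hypoxia check genes such as Vegfa were called higher in both hypoxia comparisons. Cdkn2a was at 7.37 to 327 TPM, which does not check the targeting because the edits lie within an exon. One library stood apart: UN replicate 1 had a summed level of 10 fibroblast and stellate cell markers of 5161 TPM. The other UN libraries had 1176 and 1323 TPM. This sum in UN replicate 1 was mostly Col3a1, Col1a1, Acta2 and Col1a2 (1960, 1186, 845 and 664 TPM). Acta2 was at 172 and 162 TPM in the other UN libraries. Only Pdgfra went the other way, at 80.4 TPM in UN replicate 1 against 168 and 176 TPM. The called differences of the members that rest on UN replicate 1 are given with and without it, and those of the other lists as counts. In bulk RNA, fewer cells of a type and less RNA per cell cannot be told apart. Differences below are log2 fold changes of TPM + 1 from limma, which understate the change of low genes, and a gene was called at an adjusted p under 0.05 and a change above 2-fold.

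The 8 factors spanned a wide range of levels. Cebpb was the most abundant in every library, at 37.3 to 113 TPM, followed by Foxa1, Foxa2 and Cebpa, whose TPM ranged from 1.91 to 17.9. Foxa3, Onecut1 and Prox1 did not exceed 0.539 TPM in any library. A mean of at least 1 TPM was reached by 5 members in UN cells and by 4 (Foxa1, Foxa2, Cebpa and Cebpb) in UH, SN and SH cells, Hnf4a being the member lost.

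**Figure D1:**
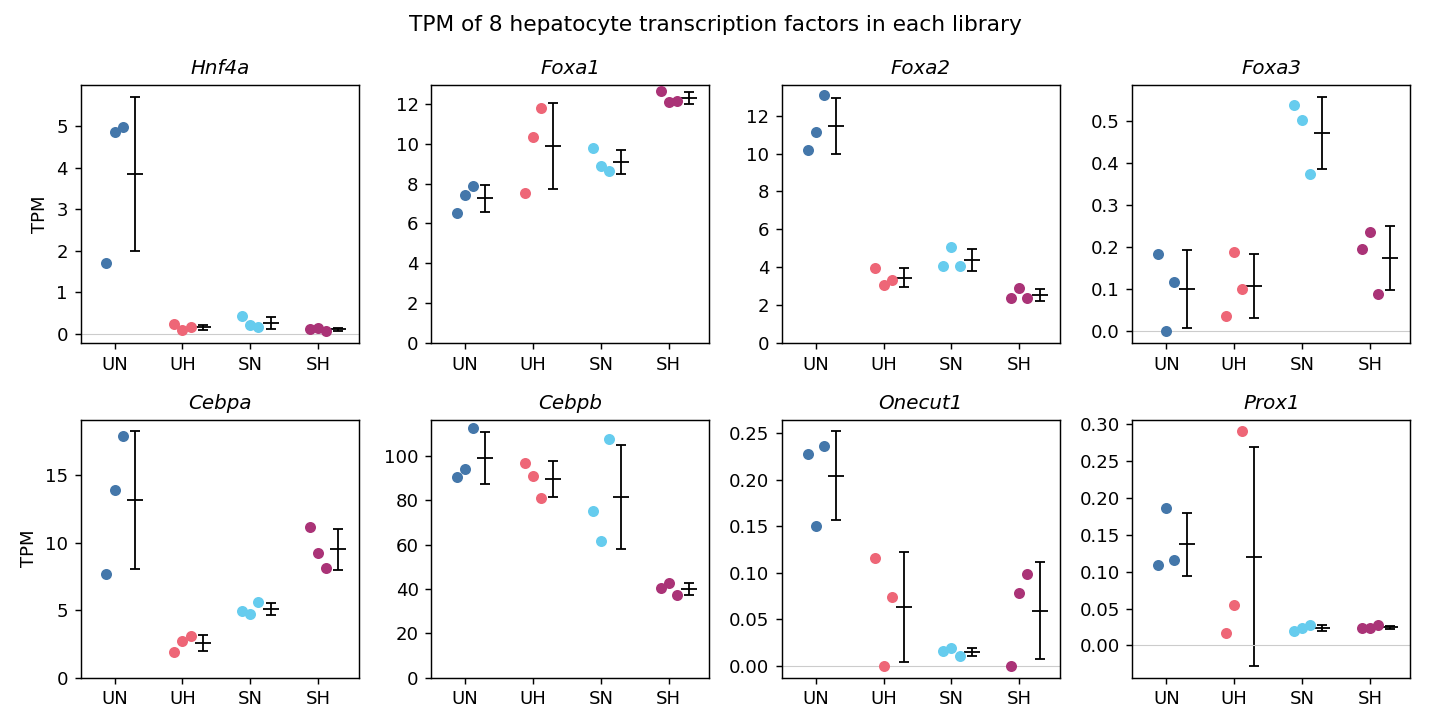
TPM (y axis, a scale per gene) of each factor in the 3 libraries of each group, in replicate order (points), with the mean and SD in black. Hnf4a is above 1 TPM only in UN cells, Foxa2 is highest there, Cebpa is lowest in UH cells and Cebpb lowest in SH cells.

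Hnf4a (ENSMUSG00000017950, chromosome 2, 163506808 to 163572910, plus strand) encodes the nuclear receptor that is needed for much of the hepatocyte program. It was measured at 1.70, 4.86 and 4.98 TPM in UN cells and at 0.225, 0.101 and 0.156 TPM in UH cells. In SN cells it stood at 0.429, 0.203 and 0.159 TPM, and in SH cells at 0.118, 0.142 and 0.0625 TPM. Thus every UN library lay above all 9 others, the lowest UN value being replicate 1, and the UH libraries overlapped those of SN and of SH cells, whereas all SN libraries were above the SH libraries. The mean of UN cells, 3.85 ± 1.86 TPM (SD, n = 3), was 23.9 times that of UH cells and 14.6 times that of SN cells, although the denominators were below 0.3 TPM and not precise. In UH vs UN, Hnf4a fell by 1.97 on the log2 scale (SE 0.249, limma adjusted p = 5.42e-05), and SN cells, although in normoxia, were lower than UN cells by a log2 fold change of −1.86 (SE 0.249, limma adjusted p = 0.000168). No further change was called in SH vs SN (−0.18, 95% interval −0.73 to 0.36), and the hypoxia responses of the sorted and the unsorted cells differed by 1.79 (SE 0.352, limma adjusted p = 0.0047), or 2.17 without UN replicate 1. Hnf4a was already at or below 0.429 TPM in every SN library. Without UN replicate 1 the log2 fold changes were −2.35 in UH vs UN and −2.24 in SN vs UN. TPM are summed per gene, so the use of the distal and proximal promoters was not resolved here. The antisense gene Hnf4aos shares no exon with Hnf4a and was at 0 to 0.982 TPM, and Gm25881, in an intron, was at 0.

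Of the 6 tested members, 3 were called in UH vs UN, Hnf4a, Foxa2 and Cebpa, all lower, where 17.2% of all tested genes were called, 11.8% lower and 5.46% higher. The members had a median log2 fold change of −0.81, and all tested genes one of −0.19. In SN vs UN the same 3 members were called lower, against 10.8% of all tested genes called, 7.57% lower and 3.20% higher, with a median of −0.73 in the members and −0.06 in all genes. These comparisons share the UN libraries. In SH vs SN limma called 0 members (12.5% of all tested genes, 7.47% higher). An adjusted p under 0.05 was reached by 4 members (41.0% of all tested genes), with changes of less than 2-fold. The median was −0.26 against 0.03 in all genes. In SH vs UH 2 members were called, 1 in each direction (13.0% of all, 7.65% higher and 5.35% lower), with a median of 0.01 against 0.17 in all genes. The difference between the responses was called for 2 members, both higher (10.3% of all, 8.08% higher and 2.18% lower), with a median of 0.45 against 0.25.

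**Figure D2:**
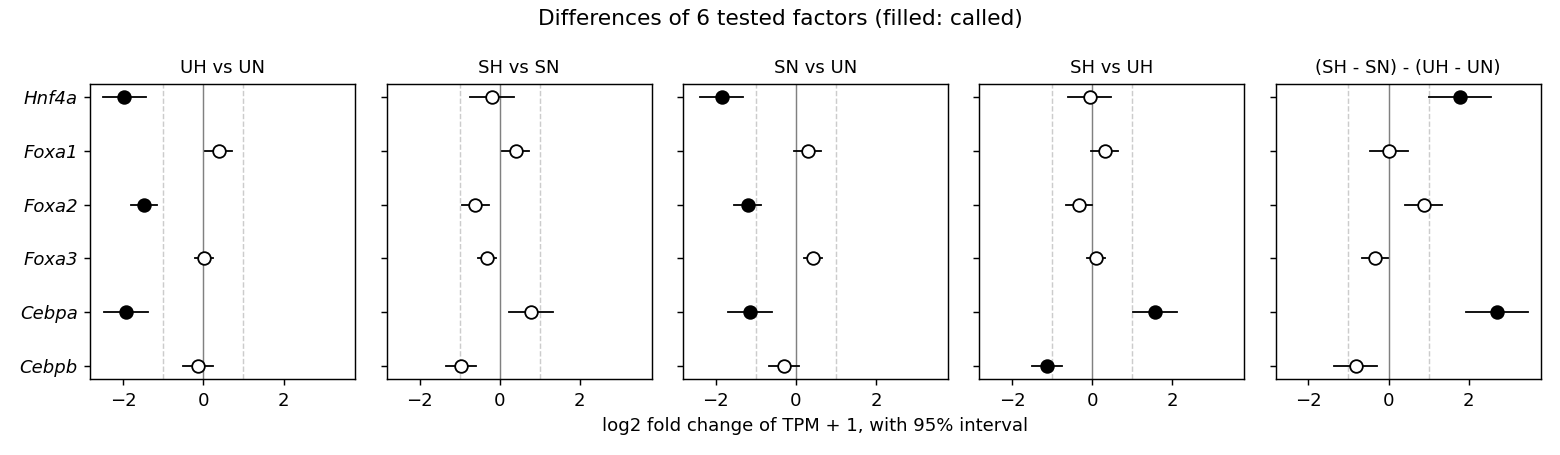
Log2 fold change of TPM + 1 (x axis) with its 95% interval for the 6 tested factors in each comparison, where filled points were called and dashed lines mark a 2-fold change. Hnf4a, Foxa2 and Cebpa lie below −1 in both comparisons with UN cells, and Cebpa lies above 1 in SH vs UH.

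The median over all genes was itself away from 0 in the comparisons with UH cells. Taken relative to that median, the changes in UH vs UN were −1.78 for Hnf4a, −1.29 for Foxa2 and −1.74 for Cebpa. Those in SH vs UH were 1.39 for Cebpa and −1.30 for Cebpb, and the differences in response were 1.54 for Hnf4a and 2.46 for Cebpa.

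The forkhead factors did not move together. Foxa2 (ENSMUSG00000037025, chromosome 2, 148042877 to 148046969, minus strand) was at 10.2, 11.1 and 13.1 TPM in UN cells and at 3.98, 3.04 and 3.33 TPM in UH cells. SN cells had 4.05, 5.07 and 4.08 TPM and SH cells 2.35, 2.88 and 2.38 TPM. The order was therefore UN, SN, UH and SH, and no neighboring groups overlapped, each pair giving an exact two-sided permutation p = 0.1, the smallest that 3 libraries against 3 allow. Its mean in UN cells was 11.5 ± 1.47 TPM (SD, n = 3), or 3.32 times that of UH and 2.60 times that of SN cells. In UH vs UN, Foxa2 fell by 1.48 (SE 0.152, limma adjusted p = 1.17e-05) and was lower in SN vs UN by a log2 fold change of −1.21 (SE 0.152, limma adjusted p = 0.000112). Without UN replicate 1 these were −1.56 and −1.28. Under hypoxia the sorted cells had a smaller difference of −0.61 (SE 0.152, limma adjusted p = 0.00721), below the 2-fold limit, and the difference between responses, 0.87, did not reach it either (limma adjusted p = 0.0145). With median-of-ratios scaling this difference was 0.58 (limma adjusted p = 0.0788) and with quantile normalization 0.39 (limma adjusted p = 0.271).

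Foxa1 (ENSMUSG00000035451, chromosome 12, 57540628 to 57546916, minus strand), a pioneer factor like Foxa2 that opens compact chromatin, had the reverse order of levels. It was at 6.54, 7.41 and 7.87 TPM in UN cells and 7.54, 10.4 and 11.8 TPM in UH cells. In SN cells it was at 9.79, 8.91 and 8.61 TPM and in SH cells at 12.7, 12.1 and 12.1 TPM. SH cells were highest and UN cells lowest in mean, without overlap with their neighbors in that order. UH cells overlapped both SN and UN cells, UH replicate 1 being below UN replicate 3. None of these differences was called, the log2 fold change being 0.38 in UH vs UN (95% interval 0.05 to 0.71, limma adjusted p = 0.0586) and 0.40 in SH vs SN (0.07 to 0.73, limma adjusted p = 0.0547). The UH vs UN value depended on scaling, being 0.70 after median-of-ratios scaling (limma adjusted p = 0.000404) and 0.72 after quantile normalization (limma adjusted p = 0.000276), still under 2-fold. The difference between these responses was 0.02 with an interval of −0.45 to 0.49, and became −0.29 with median-of-ratios scaling.

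Foxa3 (ENSMUSG00000040891, chromosome 7, 19013284 to 19023538, minus strand), the third forkhead gene of adult liver, was barely detected. It was listed at 0.184, 0 and 0.117 TPM in UN cells, 0.0358, 0.189 and 0.0996 TPM in UH cells and 0.196, 0.237 and 0.0893 TPM in SH cells. SN cells, at 0.539, 0.504 and 0.376 TPM, were above all others. In SN vs UN the log2 fold change of 0.42 (SE 0.102, limma adjusted p = 0.00769) was below the 2-fold limit, which it passed with a pseudocount of 0.1 (1.63, limma adjusted p = 0.0161).

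The ratio of Foxa2 to Foxa1 within a library does not depend on scaling between libraries, and was computed after the levels had been seen. It was 1.56, 1.50 and 1.66 in UN cells, so Foxa2 exceeded Foxa1 in all 3. In UH cells it was 0.528, 0.294 and 0.282, in SN cells 0.414, 0.570 and 0.474, and in SH cells 0.185, 0.238 and 0.196. Foxa1 thus exceeded Foxa2 in all 9 of these libraries. The mean log2 ratio differed by −2.16 between UH and UN, −1.71 between SN and UN, −1.23 between SH and SN and −0.78 between SH and UH, with no overlap in any of these (exact two-sided permutation p = 0.1 for each, the smallest possible).

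**Figure D3:**
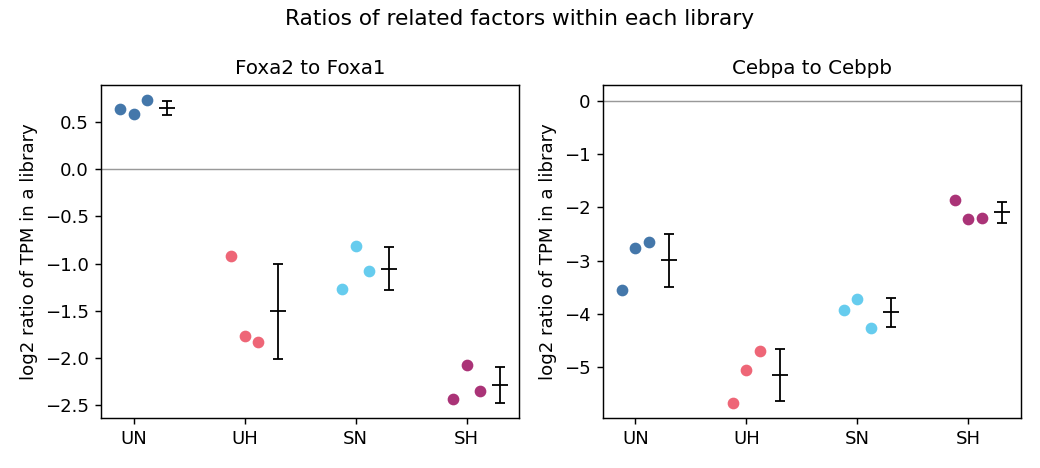
Log2 ratio of TPM within each library (y axis), Foxa2 to Foxa1 on the left and Cebpa to Cebpb on the right, by group, with points for libraries and the mean and SD in black. Only UN cells lie above 0 for Foxa2 to Foxa1, and Cebpa to Cebpb is lowest in UH cells and highest in SH cells.

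The C/EBP genes were those in which sorted and unsorted hypoxic cells were called different. Cebpa (ENSMUSG00000034957, chromosome 7, 35119293 to 35121928, plus strand) was at 7.69, 13.9 and 17.9 TPM in UN cells and at 1.91, 2.72 and 3.10 TPM in UH cells. It was at 4.94, 4.68 and 5.58 TPM in SN cells and 11.1, 9.23 and 8.12 TPM in SH cells. Hypoxia therefore went with less Cebpa in unsorted and more in sorted cells, without overlap in either case. The SH libraries lay above UN replicate 1 and below the other UN libraries. The UN mean of 13.1 ± 5.13 TPM (SD, n = 3) was 5.10 times that of UH and 2.59 times that of SN cells, and the SH mean was 3.69 times that of UH. In UH vs UN, Cebpa fell by 1.93 (SE 0.252, limma adjusted p = 7.29e-05), with a log2 fold change of −2.24 without UN replicate 1, whereas in SH vs SN its log2 fold change of 0.78 (SE 0.252, limma adjusted p = 0.0268) stayed below the 2-fold limit. The responses differed by 2.71 (SE 0.357, limma adjusted p = 0.000484), or 3.03 without UN replicate 1. Cebpa was higher in SH vs UH by 1.56 (SE 0.252, limma adjusted p = 0.000466) and lower in SN vs UN by a log2 fold change of −1.15 (SE 0.252, limma adjusted p = 0.00431), which was −1.47 without UN replicate 1 and −0.91, no longer called, without UN replicate 3.

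Cebpb (ENSMUSG00000056501, chromosome 2, 167688915 to 167690418, plus strand) had 90.7, 94.3 and 113 TPM in UN cells and 96.8, 90.7 and 80.8 TPM in UH cells. It had 75.2, 61.8 and 108 TPM in SN cells and 40.5, 42.7 and 37.3 TPM in SH cells. The UN, UH and SN libraries overlapped, and the SH libraries lay below all of them. The SH mean of 40.2 ± 2.70 TPM (SD, n = 3) was exceeded 2.23 times by that of UH and 2.03 times by that of SN cells. Cebpb was lower in SH vs UH by a log2 fold change of −1.13 (SE 0.171, limma adjusted p = 0.00028). In SH vs SN the value of −0.97 (SE 0.171, limma adjusted p = 0.000843) was just inside the 2-fold limit and passed it when SN replicate 1, SN replicate 2 or SH replicate 2 was left out (−1.01, −1.15 and −1.01). In UH vs UN it was −0.14 (95% interval −0.52 to 0.23, limma adjusted p = 0.53) and turned to 0.21 with median-of-ratios scaling. An exon of Tmem189, at 32.2 to 154 TPM, overlaps Cebpb on the opposite strand, and the strand setting used in counting was not given in the sources used here, so shared reads cannot be told apart. Gm45091 overlaps an exon of Cebpa in the same way and was not analysed here.

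The ratio of Cebpa to Cebpb within a library, also computed after the levels had been seen, was 0.0849, 0.147 and 0.159 in UN cells, 0.0197, 0.0300 and 0.0383 in UH cells, 0.0657, 0.0758 and 0.0518 in SN cells and 0.275, 0.216 and 0.218 in SH cells. The groups did not overlap, and SH cells were highest. The mean log2 ratio differed by −2.15 between UH and UN, 1.88 between SH and SN, −0.98 between SN and UN and 3.05 between SH and UH (exact two-sided permutation p = 0.1 for each, the smallest possible).

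The homeodomain genes were close to the limit of detection. Onecut1 (ENSMUSG00000043013, chromosome 9, 74861921 to 74891781, plus strand) was listed at 0.227, 0.150 and 0.236 TPM in UN cells and at 0.116, 0 and 0.0740 TPM in UH cells. It was at 0.0157, 0.0195 and 0.0110 TPM in SN cells and 0, 0.0787 and 0.0989 TPM in SH cells. The UN libraries were above all others. In a fit without a minimum level, the log2 fold change was −0.25 in SN vs UN (limma adjusted p = 0.00476) and −0.18 in UH vs UN (limma adjusted p = 0.0167). With a pseudocount of 0.1 these were −1.39 (limma adjusted p = 0.0102) and −0.96 (limma adjusted p = 0.0473). Prox1 (ENSMUSG00000010175, chromosome 1, 190118035 to 190170714, minus strand) was listed at 0.109, 0.186 and 0.116 TPM in UN cells and at 0.0162, 0.0549 and 0.290 TPM in UH cells. It was between 0.0200 and 0.0279 TPM in all SN and SH libraries, which lay below the UN libraries, and all neighbors in its order of levels overlapped. Gm20649, at 0 to 0.110 TPM, shares exons with Onecut1 on the same strand, so its reads may be split, and Prox1os and Gm28172, which overlap Prox1 on the opposite strand, were at 0.

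Markers of other cell types also differed between the groups. The summed level of the fibroblast and stellate cell markers was 4853 to 7134 TPM in UH, 201 to 211 TPM in SN and 56.6 to 77.9 TPM in SH cells, and 9 of its 10 genes were tested, of which 3 were called higher (Col1a1, Col1a2 and Col3a1) and 3 lower (Pdgfra, Pdgfrb and Dcn) in UH vs UN and 5 lower in SN vs UN, led by Col3a1 (−7.62) and Col1a2 (−7.46). Without UN replicate 1, Pdgfrb and Dcn were no longer called in UH vs UN. UN replicate 1, where this sum was high, had the lowest Hnf4a, Foxa1, Foxa2, Cebpa, Cebpb and Prox1 of its group, but the highest Foxa3. Relative to UN cells, Hnf4a, Foxa2 and Cebpa were lower in UH and in SN cells, where the sum was 4853 to 7134 and 201 to 211 TPM, respectively. Of 6 cholangiocyte markers 5 were tested, and their sum, mostly Spp1, was 2756 to 3135 TPM in UN, 1118 to 1177 TPM in UH, 4138 to 4750 TPM in SN and 877 to 1057 TPM in SH cells. Within that list Krt19 moved against the sum, being called higher in UH vs UN (3.06) and lower in SN vs UN (−5.00), with group means of 62.0, 481 and 0.837 TPM in UN, UH and SN cells, and Krt7 was called higher in SN vs UN (1.12). Of 14 endothelial markers 7 were tested, and Cdh5, Tie1, Emcn and Cldn5 were below 0.1 TPM in every library. The sums were 21.2 to 51.9 TPM in UN, 43.7 to 53.6 in UH, 7.38 to 8.44 in SN and 17.3 to 23.4 in SH cells. In UN and UH cells they were mostly Eng and Egfl7. The highest UN sum was that of replicate 1, the other UN libraries being at 21.2 and 21.8 TPM. Eng was at 41.4 TPM in that library, against 8.88 and 8.67 TPM in the others. In SN vs UN 1 of them was called higher, Tek (1.62, limma adjusted p = 1.80e-06), whose promoter drives the sorted reporter, and 2 lower, Eng (−2.90) and Egfl7 (−1.97), with a median of −0.08. Eng (1.35) was the only one called in UH vs UN, and Eng (1.76), Esam (1.41) and Vwf (1.02) were called higher in SH vs SN. In SH vs UH Esam (2.15) and Tek (1.80) were called higher, and Eng (−2.48) and Egfl7 (−1.25) lower. Esam had a mean of 0.800 TPM in UN and 2.09 TPM in SN cells, a log2 fold change of 0.79 that was below the 2-fold limit. Leaving out UN replicate 1 gave Eng a log2 fold change of 2.06 in UH vs UN and −2.19 in SN vs UN. The endothelial and cholangiocyte markers called in these comparisons were all called again. The 6 lymphatic markers summed to 1.58 to 29.9 TPM, with Ccl21a at 0 throughout, and the 6 leukocyte markers to 4.46 to 7.89 TPM in UN and 58.6 to 62.5 TPM in SH cells, mostly Cd68. Mitochondrial transcripts made up 5.18% to 8.38% of TPM in normoxic and 1.67% to 4.68% in hypoxic libraries. The part of these differences in the results was not tested.

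Among 33 other transcription factors of the liver, chosen by name with results of these data known, 29 were tested. In UH vs UN 2 were called higher and 7 lower, where 17.2% of all tested genes were called, 5.46% higher and 11.8% lower. The median log2 fold change of these factors was −0.37, against −0.19 in all tested genes. The largest falls were those of Rxra (−1.66), the dimerization partner of many nuclear receptors, the bile acid receptor Nr1h4 (−1.57), Hhex (−1.51), which is needed for liver bud outgrowth, and Tbx3 (−1.44). Ddit3, encoding the stress-induced C/EBP relative CHOP, rose by 1.90, and Nfil3, a repressor of the circadian clock output, rose by 1.06. Nr1h4 was at 3.67, 3.40 and 4.17 TPM in UN and at 0.543, 0.423 and 0.863 TPM in UH cells, a separation without overlap. In SH vs SN 3 were called higher, Ddit3 (2.13), Nfil3 (1.32) and Atf5 (1.08), and 3 lower, Cebpd (−1.50), Hlf (−1.22) and Nr1h4 (−1.16). The median was 0.07, against 0.03 in all tested genes, of which 12.5% were called.

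In SN vs UN 3 of these factors were called higher, Zbtb20 (1.26), Nr2f1 (1.16) and Hlf (1.12), and 4 lower, Onecut2 (−1.69), Nfil3 (−1.29), Klf15 (−1.24) and Nr5a2 (−1.01). The median was 0.01, against −0.06 in all tested genes, of which 10.8% were called. Onecut2, the paralog of Onecut1, was at 5.52, 8.20 and 11.6 TPM in UN cells and 1.87, 1.86 and 1.73 TPM in SN cells. In SH vs UH 7 were called higher, led by Tef (1.33), Hhex (1.24), Tbx3 (1.23) and Dbp (1.21), and 2 lower, Cebpd (−1.50) and Nfil3 (−1.03). The median was 0.47, against 0.17 in all tested genes, of which 13.0% were called. Cebpd, a further C/EBP gene, was at 74.0, 64.3 and 58.4 TPM in UH and at 24.3, 23.4 and 19.6 TPM in SH cells, so it was lowest in the same group as Cebpb.

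**Figure D4:**
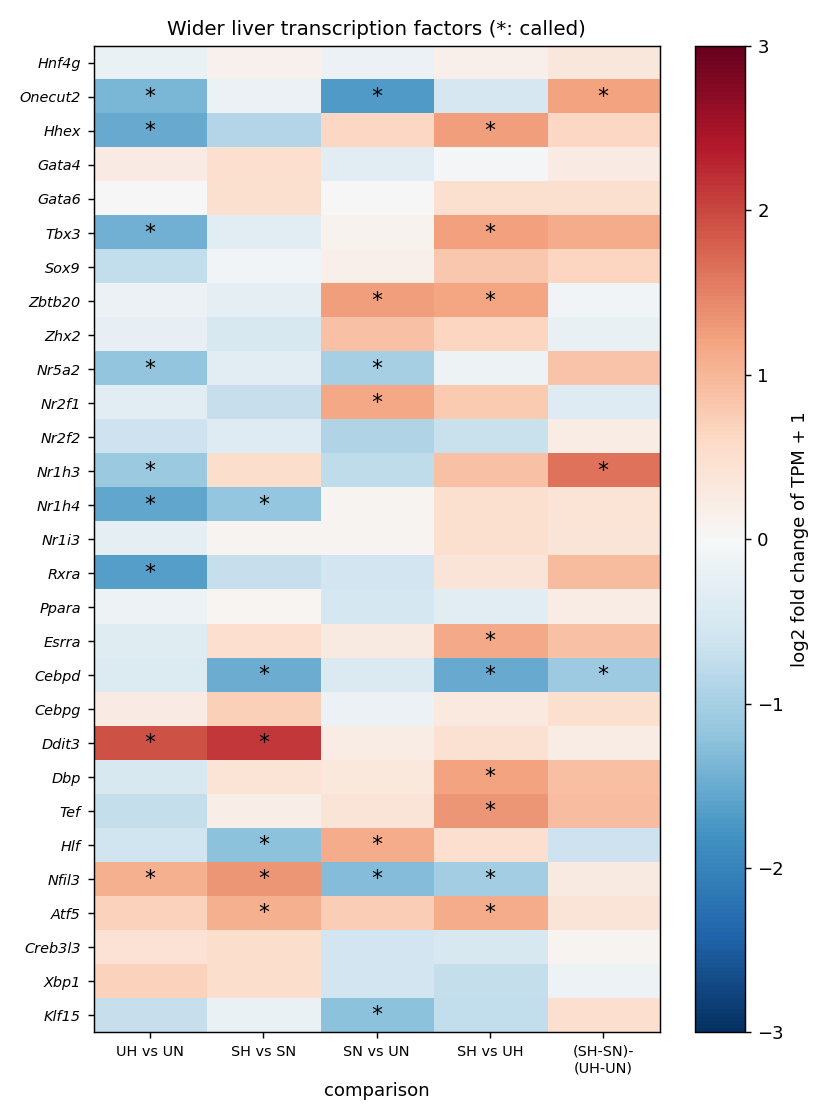
Log2 fold change of TPM + 1 (color) of the 29 other liver transcription factors tested (y axis) in each comparison (x axis), with asterisks for those called. Ddit3 and Nfil3 are red in both hypoxia comparisons, and Rxra, Nr1h4 and Hhex are among the 7 called lower in UH vs UN.

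The label hepatocyte was checked on 35 target genes of these factors in the liver. Of these, 16 were tested and 8 (F7, F9, Igfbp1, G6pc, Cps1, Otc, Cyp7a1 and Slc10a1) were below 0.1 TPM in every library, F9 being listed at 0 throughout. Albumin (Alb), the defining product of hepatocytes, did not exceed 4.23 TPM. Other targets were abundant, Rbp4 being at 64.1 to 269 TPM. In UH vs UN Apob, encoding the main protein of very low density lipoproteins, fell by 1.87 and Hp, encoding the acute phase protein haptoglobin, fell by 2.07, and the retinol carrier Rbp4 rose by 1.54. The median over the tested targets was 0.04, against −0.19 in all tested genes, of which 17.2% were called.

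Apob was at 2.10, 5.46 and 8.31 TPM in UN cells and at 0.160, 0.230 and 0.251 TPM in SN cells, without overlap, and was called lower in SN vs UN with Alb (−1.56) and the lipid transfer gene Mttp (−1.05). In the same comparison 5 targets were called higher, Trf (3.97), Afp (1.86), Rbp4 (1.75), Ass1 (1.50) and Hp (1.24), which encode transferrin, α-fetoprotein, a retinol carrier, a urea cycle enzyme and haptoglobin, and the median was −0.06. Hp was at 36.6, 39.4 and 67.1 TPM in SN cells and at 0.155, 0.451 and 0.572 TPM in SH cells. It was the only target called in SH vs SN, with a log2 fold change of −5.09 (SE 0.316, limma adjusted p = 5.48e-07) and a median over the targets of 0.07. In SH vs UH Trf (3.15), Ass1 (1.48) and Afp (1.40) were called higher and Hp (−1.78) lower, with a median of −0.01. Of all tested genes 10.8% were called in SN vs UN, 12.5% in SH vs SN and 13.0% in SH vs UH. The all-gene medians in these comparisons were −0.06, 0.03 and 0.17. Without UN replicate 1, the 3 target genes called in UH vs UN and the 8 called in SN vs UN were all called again, as were 8 of the 9 other liver factors called in UH vs UN (not Nfil3) and all 7 in SN vs UN.

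The genes with the profile most like that of a member over the 12 libraries were found from the root mean square difference of log2(TPM + 1) after centering. Nearest to Hnf4a were Omd, Pappa and Lpar4, at 0.17 to 0.19. Nearest to Foxa2 were Pole3, Slc35f2 and Ctnnbip1, at 0.15 to 0.17. For Cebpa they were Rnft2, Ppp2r2b and Cdkn2b, at 0.23 to 0.30, and for Cebpb P2rx4, Ebp and Dera, at 0.22 to 0.24. The other 4 members spanned less than 1 on this scale and were not matched.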

How the data were processed

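RNA of 12 libraries was sequenced from paired-end, stranded mRNA libraries. The authors ran nf-core/rnaseq 3.12.0 on the reads and deposited 1 table of salmon TPM per gene and library, with no scaling between libraries, and per the labels the build was mm10. The annotation release and the strand setting of the counting are not given in the sources used here. The authors' own tests used DESeq2 on counts, which TPM are not, so log2(TPM + 1) was fitted here with limma 3.58.1 (R 4.3.3), with a mean per group in 1 fit of all libraries, moderation with a trend, and Benjamini-Hochberg adjustment over the 18909 genes with a mean of at least 0.1 TPM. Single levels were compared by exact two-sided permutation of libraries. Groups came from the labels, and 0 columns of per-sample values were left unused. Identifiers were matched to GENCODE M21 (45143 of 45706 found), and promoter windows came from RefSeq. Tables were handled in Python 3.11.15 with pandas 2.3.3 and numpy 2.4.6, and plots were drawn with matplotlib 3.10.9.

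The 8 members, the gene lists and the tests were chosen with earlier results of these data known. By rule, the text names all members, of each other list the called genes with up to 4 largest changes in each direction per comparison, genes overlapping a member, and for members that span at least 1 on the log2 scale the 3 genes most like them with a mean of at least 1 TPM. Not all called genes of the marker lists are printed. Genes outside this rule (Alb, the target genes near 0, Acta2, Vegfa, Cd68) were named after their values were seen. Some liver factors are not reported here. Same-numbered libraries of different groups had residual correlations of −0.0631 to 0.141 over 12 pairs, and were not treated as paired. Alternatives were pseudocount, minimum level, scaling, a replicate block, fits restricted to the pair of groups compared, untrended moderation and leaving out each library. The fit was tested on simulated data with known changes.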

Additional observations from a re-analysis of the deposited data

Results flagged for a closer look

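The response to hypoxia differed between sorted and unsorted cells, by the test of the difference (SH − SN) − (UH − UN) in limma, for 4 of the 6 tested factors at an adjusted p under 0.05, which 22.0% of all tested genes reached. The difference was 2.71 for Cebpa, 1.79 for Hnf4a, 0.87 for Foxa2 and −0.82 for Cebpb on the log2 scale, of which the latter pair was below 2-fold. Cebpb passed 2-fold with median-of-ratios scaling (−1.16) and when SN replicate 2 was left out, whereas Foxa2 was above the p threshold with median-of-ratios scaling (0.58, limma adjusted p = 0.0788) and quantile normalization (0.39, limma adjusted p = 0.271). Cebpb was above it with no minimum level (limma adjusted p = 0.0505) and when UN replicate 2, UH replicate 1 or 2, SN replicate 1 or any SH replicate was left out (limma adjusted p of 0.0526 to 0.0731). The difference was called for 3 of the 29 other liver transcription factors tested, where 10.3% of all tested genes were called. They were Nr1h3 (1.64), the oxysterol receptor LXRα, Onecut2 (1.20) and Cebpd (−1.08). Of the 16 target genes tested, 4 were called, Mttp (1.88), Apob (1.79), Rbp4 (−1.75) and Hp (−3.02). The median over all tested genes was 0.25, and UN libraries, of which replicate 1 stood apart, enter every one of these values. Without that library the differences were 3.03 for Cebpa, 2.17 for Hnf4a, 0.95 for Foxa2, −0.76 for Cebpb, 2.23 for Apob, 2.19 for Mttp, 1.84 for Nr1h3, 1.44 for Onecut2, −1.20 for Cebpd, −1.89 for Rbp4 and −3.42 for Hp. Apob was at 0.160 to 0.251 TPM in SN and 0.0478 to 0.257 TPM in SH cells, and Hnf4a at 0.159 to 0.429 TPM in SN cells. At such levels a further fall on the scale of log2(TPM + 1) could only be small. The causes of the differences in response were not tested. Single values were not screened for outliers within a group, since a group holds only 3 libraries.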

How the results depend on the processing

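Of the 10 calls on members, 8 kept their direction and their side of the threshold under every alternative that was run. The exceptions were in SN vs UN, where Foxa2 (−0.95) and Cebpa (−0.92) were below 2-fold after quantile normalization, leaving 1 member called, and Cebpa (−0.91) without UN replicate 3. With a pseudocount of 0.1 and no minimum level, an alternative added after seeing the data, 5 members were called in SN vs UN, Foxa3 (1.63) and Onecut1 joining. Onecut1 was at 0.0110 to 0.0195 TPM in SN cells. The share of all genes called was computed only for the main settings, so counts under the alternatives cannot be set against it. Leaving out each library gave 3 to 3 members called in UH vs UN, 0 to 1 in SH vs SN (Cebpb), 2 to 3 in SN vs UN, 2 to 2 in SH vs UH and 2 to 3 for the difference in response. Changes of sign touched only values that were not called. Cebpb in UH vs UN was 0.21 with median-of-ratios scaling and 0.021 with quantile normalization. Foxa1's difference in response was −0.29 and −0.32 under these, and −0.15 to 0.14 with a library left out (−0.03, −0.02 and −0.00 among them). Foxa3 was −0.016 in SH vs UH after quantile normalization, and −0.056 to 0.066 in UH vs UN with a library left out (−0.04 among them). Members at a mean of at least 0.1 TPM were 8 in UN and 7 in UH cells, and at least 5 TPM 2 in UH cells. A pseudocount of 0.1 gave 8 target genes called in place of 3 in UH vs UN (7 with no minimum level, 5 without UN replicate 1), 4 in place of 1 in SH vs SN (3 without SH replicate 3), and 14 other liver factors in place of 9 in SH vs UH. Of the other liver factors' differences in response, 3 were called, 8 without UN replicate 1, 5 without UH or SN replicate 3 and 1 without UH or SN replicate 1.

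With the replicate number as a block, 3, 0, 3, 2 and 2 members were called in UH vs UN, SH vs SN, SN vs UN, SH vs UH and the difference in response, and the block changed no call on a member. The causes of these differences were not tested. The comparison of only 2 groups was not run for the difference in response, which needs all 4. TPM below about 0.1 are not precise, and the depth behind them is unknown, which limits Foxa3, Onecut1, Prox1 and, outside UN cells, Hnf4a.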
